A study of Mus musculus with 13 samples.

Results

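The genes that make, package and identify GABAergic interneurons were measured in mouse cortex: Gad1, Gad2, Slc32a1, Pvalb, Lhx6, Nxph1, Erbb4, Dlx1 and Dlx6os1. They were taken by symbol, and all 9 stood in each of the 3 comparison tables, among 17562 genes listed in any table and 13482 listed in all 3. Neuropeptide and GABA receptor genes were left out. The samples were cortices of 13 males, 18 months old, 4 of them Grn-/-; GRNtg, 4 Grn+/- and 5 wild type (Grn+/+). Progranulin, the Grn product, is secreted and also works in lysosomes. Grn+/- mice kept 1 copy of mouse Grn. The Grn-/-; GRNtg mice lacked mouse Grn, carried a human GRN transgene, and are called humanized mice below, after the series text. The sources used here do not say what drives the transgene, how many copies there are, or the strain. The question was whether inhibitory neuron genes differ in cortex that is short of mouse progranulin or holds human progranulin in its place.

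All fold changes, standard errors (SE) and adjusted p-values are the authors' own. Whether the authors' model drew fold changes toward 0 was not tested. If it did, percents of wild type below lie too near the wild-type level and intervals may be too narrow. No value per mouse was analysed here, so the spread between mice enters only through the SE. A gene is called higher or lower where its adjusted p in the authors' Wald test is under 0.05. Mouse Grn had a log2 fold change of -2.02 ± 0.081 in humanized mice and of -0.65 ± 0.077 in Grn+/- mice, each against wild type, in the authors' deposited tables. The value in humanized mice may be drawn toward 0 and does not show whether mouse Grn reads remain there. That, and which transcripts any such reads come from, was not tested. The 2 comparisons against wild type use the same 5 wild-type mice, so equal values in them are not independent. In bulk RNA from tissue, fewer cells of a type and less RNA per cell cannot be told apart.

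GABA is the main inhibitory transmitter of the cortex. It is made from glutamate by the decarboxylases GAD67 (Gad1) and GAD65 (Gad2), and loaded into synaptic vesicles by the transporter VGAT (Slc32a1). In the mouse, cortical interneurons arise in the ganglionic eminences of the embryonic forebrain under Dlx homeodomain factors. Those from the medial eminence need Lhx6 and become mostly parvalbumin or somatostatin cells. Parvalbumin (Pvalb) is the calcium buffer of fast-spiking interneurons. Erbb4 is the neuregulin receptor of many of these cells, and Nxph1 encodes neurexophilin 1, a secreted ligand of alpha-neurexins. Dlx6os1, also called Evf2, is a long noncoding RNA transcribed from the Dlx5 and Dlx6 locus.

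Sequence before the annotated starts is shown for Erbb4, the member that was called lower, and for Gad1 and Slc32a1, the GABA genes with the smallest p in Grn+/- mice. The sequences are from RefSeq on GRCm38.p6, read 5′ to 3′ on the strand of the gene, and end at the start of transcription or, for Gad1, before the first base annotated as untranslated. Capitals mark a match to any of 6 motifs searched on both strands. The homeodomain core was searched as TAATTA and the GC box as GGGCGG. For the CCAAT box the letters CCAAT were used, and for the TATA box TATAAA. The cAMP response element was searched as TGACGTCA, and the site of the factor AP-1 as TGANTCA. No sequence shown holds more than 1 match, so no matches overlap. Erbb4 is at chr1:69108060-69108309 on the minus strand, Gad1 at chr2:70561879-70562041 on the plus strand and Slc32a1 at chr2:158610508-158610757 on the plus strand. The Gad1 stretch precedes a RefSeq start but lies inside the span of Gad1 in GENCODE M21, which begins at 70553072. It is therefore not before the outermost annotated start of Gad1.
Erbb4: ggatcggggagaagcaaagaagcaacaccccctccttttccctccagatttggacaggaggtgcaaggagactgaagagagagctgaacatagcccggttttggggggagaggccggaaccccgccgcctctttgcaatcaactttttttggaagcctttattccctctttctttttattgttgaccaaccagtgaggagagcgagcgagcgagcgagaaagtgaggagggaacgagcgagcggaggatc
Gad1: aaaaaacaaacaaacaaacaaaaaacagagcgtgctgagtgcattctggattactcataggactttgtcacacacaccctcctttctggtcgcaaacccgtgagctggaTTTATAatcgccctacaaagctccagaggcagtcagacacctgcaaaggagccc
Slc32a1: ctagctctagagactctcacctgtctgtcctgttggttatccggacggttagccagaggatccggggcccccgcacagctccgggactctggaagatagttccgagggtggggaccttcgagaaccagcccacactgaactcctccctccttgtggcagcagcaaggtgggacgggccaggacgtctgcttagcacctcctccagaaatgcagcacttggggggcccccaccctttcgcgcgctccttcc
In Gad1 the match reads TATAAA on the other strand and starts 141 bases before the RefSeq start, and a GC box lies 8 bases before that start, past the end of the stretch shown. TATAAA was held by 12.4% of all 32817 windows of 250 bases before RefSeq starts. None of the 6 motifs was in the windows of Erbb4 or Slc32a1, which says only that these letters are not there. The window of Nxph1 lies in a first exon of GENCODE M21 and is not shown. It held 2 GC boxes and 1 CCAAT box, motifs held by 32.7% and 33.8% of all windows. TAATTA, held by 4.85% of all windows, had 2 matches before the first listed start of Dlx6os1 and 1 before the second, and 0 before the other 8 genes. GC content was 54% in the Erbb4 window and 66.8% in that of Nxph1, against a median of 52.4% over all windows.

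Levels are given as the authors' mean normalized count over all mice, divided here by the exon length of each gene in GENCODE M21 (GRCm38). Pvalb (chromosome 15, 78191114 to 78206400, minus strand) had 1064 per kb and Slc32a1 (chromosome 2, 158610767 to 158615748, plus strand) 1056 per kb, computed from the authors' deposited tables. Gad1 (chromosome 2, 70553072 to 70602014, plus strand) followed with 838 per kb, which is 2.13 times the 394 per kb of Gad2 (chromosome 2, 22622205 to 22693874, plus strand), computed from the authors' deposited tables. These 4 genes lay between the 82.1 and 94.4 percentile of the genes in all tables.
The other identity genes were lower, with 106 per kb for Lhx6 (chromosome 2, 36081953 to 36105408, minus strand) and 88.5 per kb for Nxph1 (chromosome 6, 8948431 to 9249032, plus strand), computed from the authors' deposited tables. Dlx1 (chromosome 2, 71528113 to 71533981, plus strand) had 78.9 per kb and Dlx6os1 (chromosome 6, 6820189 to 6871592, minus strand) 26.0 per kb, computed from the authors' deposited tables. Erbb4 (chromosome 1, 68032186 to 69108059, minus strand) was lowest with 4.78 per kb, at the 0.884 percentile of genes in all tables, computed from the authors' deposited tables. Its mean normalized count was 59.0 in the authors' deposited tables, which is the smallest number of reads behind any of the 9 genes. Pvalb and Slc32a1 stand next to each other in this order, as do Nxph1 and Dlx1, and whether such neighbours differ beyond the spread between mice was not tested.

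**Figure D1:**
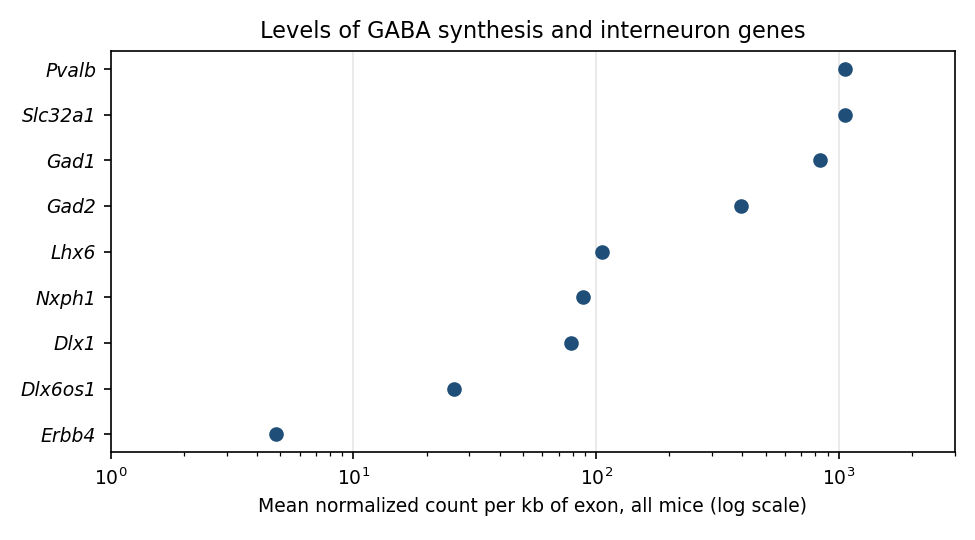
Mean normalized count per kb of exon over all mice (log axis) for the 9 genes, 1 point a gene, with no error bar. Pvalb at 1064, Slc32a1 at 1056 and Gad1 at 838 per kb lie highest, followed by Gad2 at 394, and Erbb4 lies lowest at 4.78.

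The genes of GABA synthesis and vesicle loading had positive fold changes against wild type in both mutant groups, and none of them was called. Humanized mice had 107% of the wild-type level of Gad1 (95% interval 96.0% to 119%) and Grn+/- mice had 115% (104% to 128%), computed from the authors' deposited tables. The adjusted p of Gad1 was 0.52 in humanized mice and 0.088 in Grn+/- mice, in the authors' deposited tables. For Gad2, humanized mice had 113% of wild type (100.4% to 126%) and Grn+/- mice 109% (96.9% to 122%), with adjusted p = 0.23 in humanized mice and 0.44 in Grn+/- mice, from the authors' deposited tables. The transporter gene Slc32a1 had 103% (95% to 112%) in humanized mice and 111% (102% to 120%) in Grn+/- mice, with adjusted p = 0.73 in humanized mice and 0.13 in Grn+/- mice, from the authors' deposited tables. Its SE of 0.060 in Grn+/- mice was smaller than that of 90.9% of genes in the authors' deposited table, so Slc32a1 is the member measured most closely. Over these 3 genes and both groups, the intervals reach no higher than 128% and no lower than 95% of wild type. These limits hold only if the deposited fold changes were not drawn toward wild type, which was not tested.

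Parvalbumin and the lineage factors were not called in either mutant group. Pvalb had 90.3% of wild type in humanized mice (75.4% to 108%) and 102% in Grn+/- mice (85.2% to 122%), with adjusted p = 0.56 in humanized mice and 0.94 in Grn+/- mice, from the authors' deposited tables. Its SE of 0.133 is close to 0.138, the largest SE in the authors' deposited tables, at a mean normalized count of 1108. If that largest SE is a limit of the authors' model, the interval of Pvalb is too narrow, which was not tested. Lhx6 had 106% in humanized mice (94.8% to 119%) and 105% in Grn+/- mice (93.5% to 117%), from the authors' deposited tables. The Dlx1 level was 102% in humanized mice (87.9% to 118%) and 114% in Grn+/- mice (97.9% to 132%), from the authors' deposited tables. Dlx1as, a noncoding RNA on the opposite strand of Dlx1, had log2 fold changes of -0.15 ± 0.094 in humanized mice and -0.09 ± 0.094 in Grn+/- mice, also uncalled, in the authors' deposited tables. Dlx6os1 had 99.1% in humanized mice (83.9% to 117%) and 97.2% in Grn+/- mice (82.2% to 115%), from the authors' deposited tables. The adjusted p of Lhx6, Dlx1 and Dlx6os1 lay between 0.34 and 0.96 over both groups in the authors' deposited tables. Dlx6, which overlaps Dlx6os1 on the other strand, had 0.18 ± 0.130 in humanized mice and 0.07 ± 0.130 in Grn+/- mice in the authors' deposited tables. The libraries keep strand, per the labels' protocols, but whether the counting used it is not given, so reads of Dlx1 and Dlx6os1 may be shared with these partners.

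Nxph1 was called higher in both mutant groups. Its log2 fold change was 0.31 ± 0.081 in humanized mice (adjusted p = 0.0076) and 0.32 ± 0.081 in Grn+/- mice (adjusted p = 0.0049) in the authors' deposited tables. These values are 124% of the wild-type level in each group, with intervals of 111% to 139% in each, computed from the authors' deposited tables. Ranked from the highest fold change, Nxph1 was at place 294 of 14961 genes in humanized mice and at place 122 of 13482 in Grn+/- mice, in the authors' deposited tables. By p, Nxph1 was at place 217 among genes in humanized mice and at place 263 in Grn+/- mice. Between the mutant groups the difference was -0.0027 ± 0.083 (adjusted p = 0.999) in the authors' deposited table, with an interval of -0.17 to 0.16 on the log2 scale.

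Erbb4 was called lower in Grn+/- mice. It had 79.1% of wild type in humanized mice (66.2% to 94.3%) and 73.5% in Grn+/- mice (61.6% to 87.7%), computed from the authors' deposited tables. The log2 fold change of -0.34 ± 0.130 in humanized mice was not called (adjusted p = 0.099), and that of -0.44 ± 0.130 in Grn+/- mice was (adjusted p = 0.018), in the authors' deposited tables. The mutant groups differed by 0.10 ± 0.127 (adjusted p = 0.90) in the authors' deposited table, so the call in Grn+/- mice is no sign of a difference from humanized mice. Ranked from the lowest fold change, Erbb4 was at place 341 of 14961 genes in humanized mice and at place 130 of 13482 in Grn+/- mice, in the authors' deposited tables. The call rests on few reads: with genes under a mean normalized count of 100 left out, Erbb4 is not tested, and at an adjusted p under 0.01 it is not called. Its SEs of 0.130 also lie close to the largest SE of 0.138, so its intervals carry the same limit as that of Pvalb.

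Counted over the 9 genes, Grn-/-; GRNtg against wild type had 1 called higher and 0 lower, where 4.87% of 14961 genes were called, 1.81% higher and 3.05% lower, in the authors' deposited table. Grn+/- against wild type had 1 called higher and 1 lower, where 6.8% of 13482 genes were called, 2.29% higher and 4.51% lower, in the authors' deposited table. At an unadjusted p under 0.05 the counts were 3 of 9 in humanized mice and 4 of 9 in Grn+/- mice, where 20.5% of all genes passed in humanized mice and 20.2% in Grn+/- mice. The median log2 fold change of the 9 genes was 0.04 in humanized mice and 0.12 in Grn+/- mice, beside 0.0050 over all genes in humanized mice and 0.0082 in Grn+/- mice. With the Wald statistics divided by their robust spread over all genes, 0 of the 9 genes were called in either group, and among all genes 5 were called in humanized mice and 3 in Grn+/- mice.

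**Figure D2:**
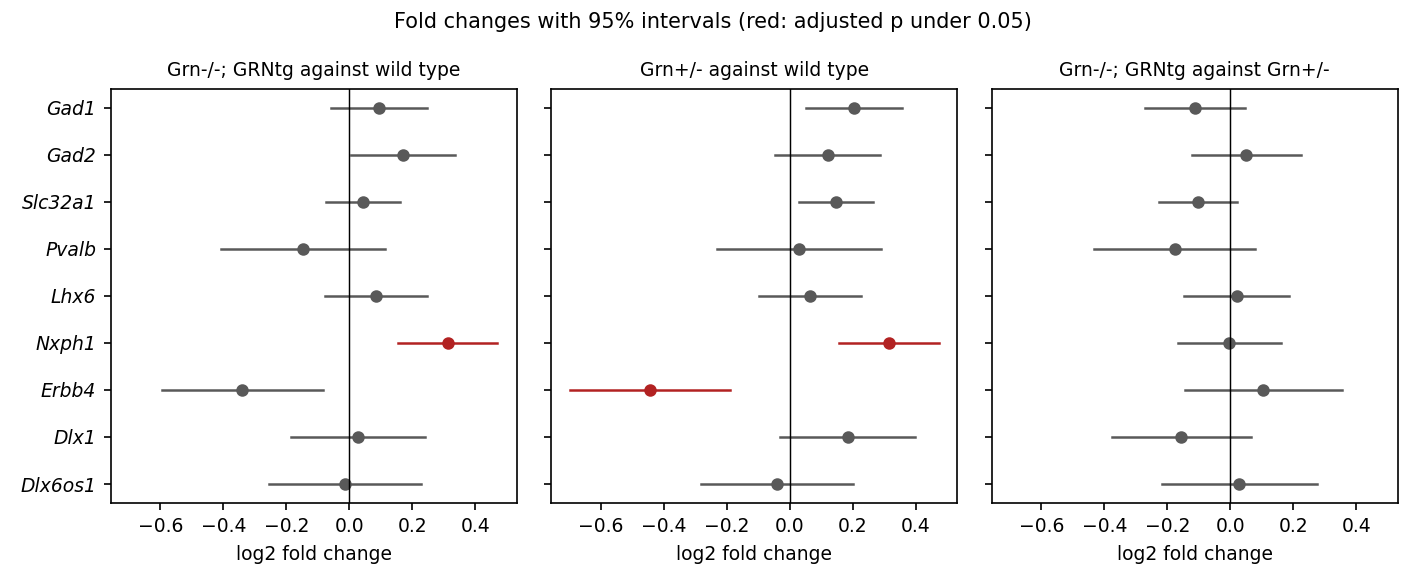
Log2 fold change (points) with 95% interval (lines) of the 9 genes in the 3 comparisons, called genes in red. Nxph1 lies above 0 in both comparisons against wild type and at 0 between the mutant groups, and Erbb4 lies below 0 against wild type.

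The direct comparison of humanized with Grn+/- mice called 0 of the 9 genes by the authors' Wald test, and 0 also at an unadjusted p under 0.05. Over all 17562 genes of that comparison, 0.467% were called and 8.99% had an unadjusted p under 0.05. The log2 fold changes ran from -0.18 ± 0.130 for Pvalb to 0.10 ± 0.127 for Erbb4 in the authors' deposited table, and 5 of 9 were negative. Gad1 was at -0.11 ± 0.081, Slc32a1 at -0.10 ± 0.063 and Gad2 at 0.05 ± 0.088 in the authors' deposited table. The intervals were -0.27 to 0.05 for Gad1, -0.23 to 0.02 for Slc32a1 and -0.43 to 0.08 for Pvalb. Dlx1 was at -0.16 ± 0.112, while Lhx6 and Dlx6os1 were at 0.02 ± 0.086 and 0.03 ± 0.126 in the authors' deposited table.

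**Figure D3:**
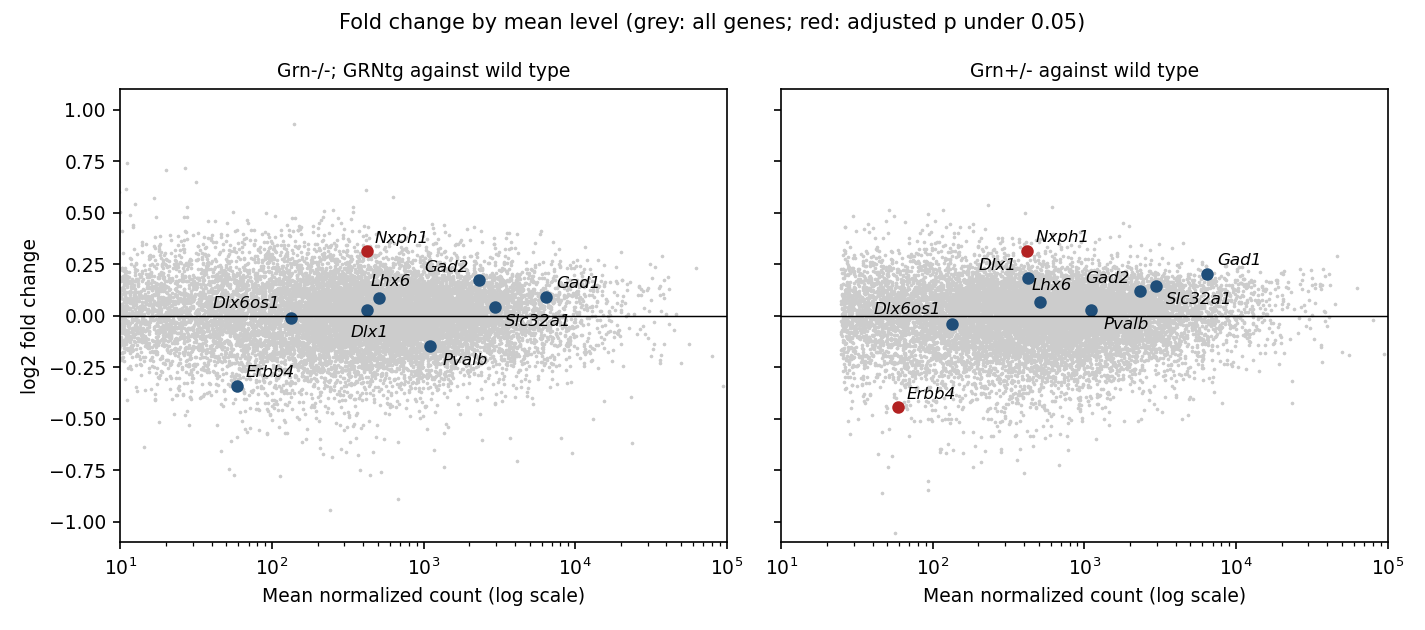
Log2 fold change against mean normalized count (log axis) for all genes (grey) and the 9 genes (blue, or red where called), in humanized (left) and Grn+/- mice (right) against wild type. Genes beyond the axes are not drawn, among them Grn at -2.02 in humanized mice. Nxph1 and Erbb4 lie toward the edges of the grey cloud, and the other 7 lie inside it.

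The genes whose pair of fold changes against wild type lay nearest to Nxph1, among 11368 genes with a mean normalized count of at least 100, were Kdelc2, Pcdh20 and Oprl1. Oprl1, the nociceptin receptor, had 0.32 ± 0.069 in humanized mice and 0.33 ± 0.069 in Grn+/- mice in the authors' deposited tables. Kdelc2 had 0.31 ± 0.119 in humanized mice and 0.32 ± 0.119 in Grn+/- mice, uncalled in the authors' deposited tables. The protocadherin gene Pcdh20 had 0.30 ± 0.131 in humanized mice and 0.33 ± 0.131 in Grn+/- mice, also uncalled in the authors' deposited tables. Their distances from Nxph1 on the log2 scale were 0.0197 for Oprl1, 0.0075 for Kdelc2 and 0.0190 for Pcdh20. Nearest to Erbb4 were 1700020I14Rik, Hook3 and Zbtb26, at distances of 0.0127, 0.0143 and 0.0155. Hook3, a dynein adaptor, had -0.35 ± 0.086 in humanized mice and -0.44 ± 0.086 in Grn+/- mice in the authors' deposited tables. Such likeness rests on 2 values a gene that share the wild-type mice, and 15 genes lay within 0.05 of Nxph1 and 28 within 0.05 of Erbb4.

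Further genes of the GABAergic system were taken from 9 lists, which held 70 measured genes beside the members. Of these, humanized mice against wild type had 2 higher and 5 lower of 65 tested, and Grn+/- mice had 1 higher and 3 lower of 62, beside 4.87% of all genes called in humanized mice and 6.8% in Grn+/- mice. Their median log2 fold change was 0.0057 in humanized mice and -0.0011 in Grn+/- mice. Between the mutant groups 1 of 70 was called, Etv1.

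At the inhibitory synapse, Lhfpl4 was called higher in both groups. Its protein ties GABA-A receptors to neuroligin 2 in the mouse. Lhfpl4 had 0.19 ± 0.062 in humanized mice (adjusted p = 0.048) and 0.20 ± 0.062 in Grn+/- mice (adjusted p = 0.031) in the authors' deposited tables. It was not called in humanized mice with fold changes centred on the median gene, nor in Grn+/- mice with the median of genes of similar span subtracted. The list had 1 of 8 called in each group, 5 of 8 at an unadjusted p under 0.05 by the same Wald test, and 6 of 8 positive. Among the positive was the scaffold gene Gphn at 0.12 ± 0.066 in humanized mice and 0.17 ± 0.066 in Grn+/- mice, uncalled in the authors' deposited tables. The 2 negative genes were uncalled too. Slc12a2 had -0.31 ± 0.126 in humanized mice and -0.28 ± 0.126 in Grn+/- mice, and Iqsec3 had -0.23 ± 0.096 in humanized mice and -0.17 ± 0.096 in Grn+/- mice, in the authors' deposited tables. GABA uptake and breakdown genes had 0 of 7 called in humanized mice and 0 of 6 in Grn+/- mice, with 1 gene at an unadjusted p under 0.05 in each by the same Wald test. That gene was Slc6a11, the astrocytic GABA transporter GAT3, at -0.14 ± 0.059 in humanized mice and -0.13 ± 0.059 in Grn+/- mice in the authors' deposited tables.

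Among the receptors that share ligands or pair with ErbB4, Egfr and Erbb3 were called lower in both groups. Egfr had -0.40 ± 0.108 in humanized mice (adjusted p = 0.013) and -0.56 ± 0.109 in Grn+/- mice (adjusted p = 8.4e-05) in the authors' deposited tables. Erbb3, a neuregulin receptor abundant in the oligodendrocyte lineage, had -0.46 ± 0.129 in humanized mice (adjusted p = 0.016) and -0.40 ± 0.129 in Grn+/- mice (adjusted p = 0.034) in the authors' deposited tables. The neuregulin genes Nrg1, Nrg2 and Nrg3 and the receptor gene Erbb2 were not called, with log2 fold changes between -0.01 and 0.11 in both groups in the authors' deposited tables. In the list of neurexophilins and neurexins 0 genes were called, with 2 of 6 at an unadjusted p under 0.05 in humanized mice and 1 of 5 in Grn+/- mice. Nxph4 had 0.38 ± 0.138 in humanized mice (adjusted p = 0.079) and -0.09 ± 0.138 in Grn+/- mice (adjusted p = 0.78) in the authors' deposited tables. The difference between the mutant groups for Nxph4 was 0.47 ± 0.138 (adjusted p = 0.081) in the authors' deposited table. In that comparison 5 of 6 genes of the list were positive with a median of 0.22, and 0 were called. By the same Wald test 4 of 6 had an unadjusted p under 0.05, beside 8.99% of all genes. The neurexin gene Nrxn2, at 0.25 ± 0.091 in humanized mice (adjusted p = 0.080) in the authors' deposited table, was called there with the median of genes of similar span subtracted.

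Transcription factors of interneurons from the medial ganglionic eminence had Sox6 called lower in both groups, at -0.30 ± 0.087 in humanized mice (adjusted p = 0.020) and -0.31 ± 0.087 in Grn+/- mice (adjusted p = 0.014) in the authors' deposited tables. Sox6 is also expressed in oligodendrocyte precursors. Zeb2, a factor also of glia, was called lower in humanized mice, at -0.30 ± 0.093 (adjusted p = 0.032), and had -0.19 ± 0.093 in Grn+/- mice (adjusted p = 0.24) in the authors' deposited tables. With the median of genes of similar span subtracted, Zeb2 was not called in humanized mice. Etv1, which marks layer 5 neurons as well, was at 0.25 ± 0.106 in humanized mice and at -0.20 ± 0.107 in Grn+/- mice, uncalled against wild type in the authors' deposited tables. Its difference between the mutant groups, 0.45 ± 0.110, was called (adjusted p = 0.019) in the authors' deposited table. Of the 7 genes of this list, 2 were called in humanized mice and 1 in Grn+/- mice. Positive were 3 in humanized mice and 2 in Grn+/- mice, with medians of -0.02 in humanized mice and -0.12 in Grn+/- mice. Bcl11b had 0.26 ± 0.129 in humanized mice and -0.12 ± 0.129 in Grn+/- mice, uncalled in the authors' deposited tables. Of the markers of interneurons from the caudal ganglionic eminence, Nr2f2 (COUP-TFII) was called higher in humanized mice, at 0.39 ± 0.122 (adjusted p = 0.037), against 0.04 ± 0.122 in Grn+/- mice (adjusted p = 0.90) in the authors' deposited tables. The difference between the mutant groups for Nr2f2 was 0.35 ± 0.119 (adjusted p = 0.20) in the authors' deposited table. These caudal markers had 1 of 10 called in humanized mice and 0 of 10 in Grn+/- mice. At an unadjusted p under 0.05 by the same Wald test were 5 in humanized mice and 2 in Grn+/- mice. Positive were 7 of 10 in humanized mice and 6 of 10 in Grn+/- mice. Prox1 was negative, at -0.30 ± 0.136 in humanized mice and -0.28 ± 0.136 in Grn+/- mice, uncalled in the authors' deposited tables.
The fast-spiking and perineuronal net list had Tnr called lower in humanized mice, at -0.46 ± 0.130 (adjusted p = 0.017), and at -0.29 ± 0.130 in Grn+/- mice (adjusted p = 0.17) in the authors' deposited tables. Tnr encodes tenascin-R of perineuronal nets, which oligodendrocytes also make. The other 10 genes of that list were uncalled, with Acan, the net proteoglycan, at -0.14 ± 0.128 in humanized mice and -0.04 ± 0.128 in Grn+/- mice in the authors' deposited tables. Negative were 9 of 11 genes in humanized mice, with a median of -0.14, and 5 of 11 in Grn+/- mice, with a median of 0.0060. Between the mutant groups 8 of 11 were negative with a median of -0.17. There 0 were called and 2 had an unadjusted p under 0.05 by the same Wald test. The Dlx and other forebrain GABAergic factors had 0 of 7 called in each group, with 1 gene at an unadjusted p under 0.05 in each. Calb1 and Calb2, calcium-binding protein genes of other interneurons, were at 0.27 ± 0.122 and 0.16 ± 0.120 in humanized mice, uncalled in the authors' deposited table.

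**Figure D4:**
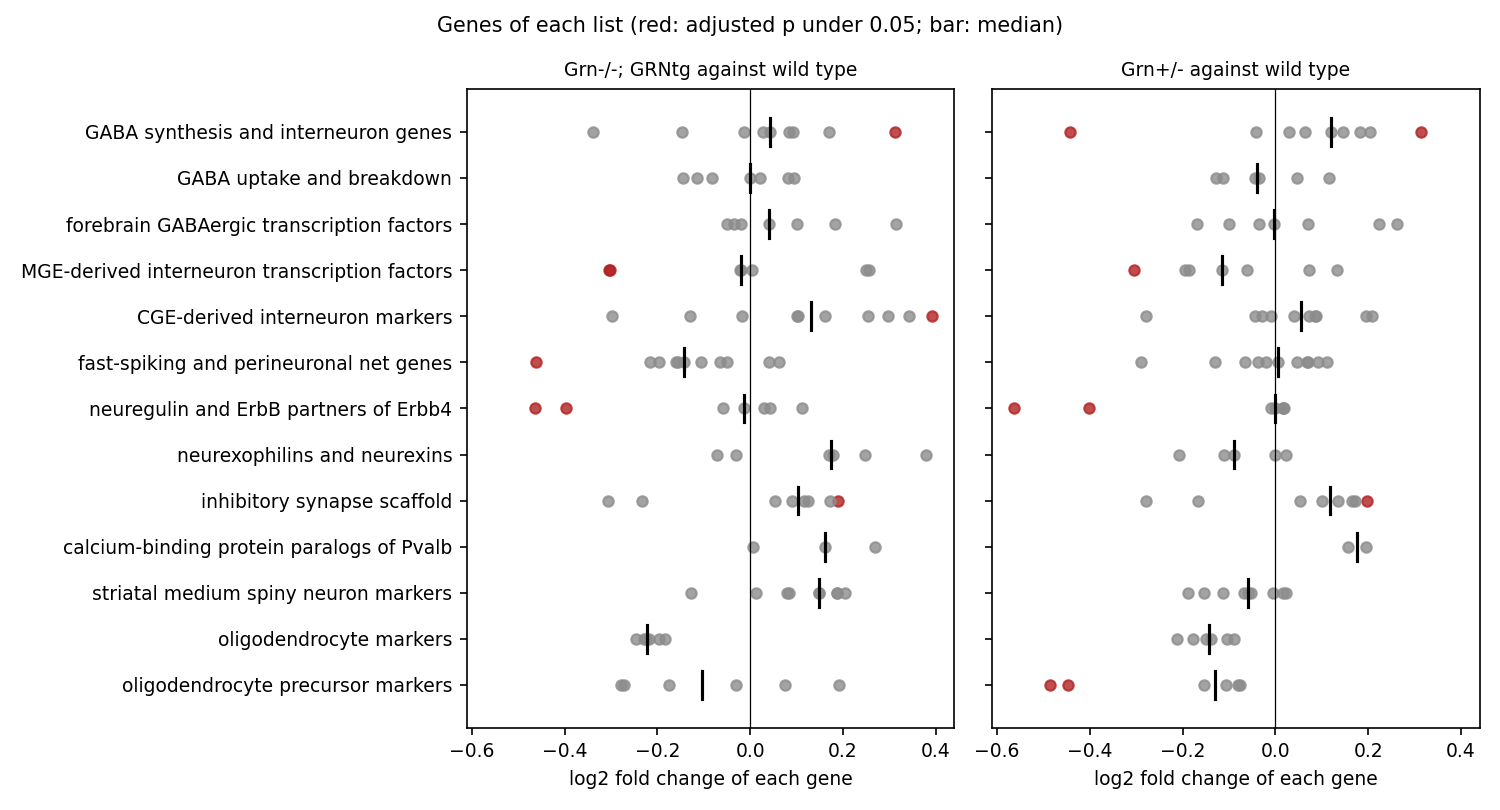
Log2 fold change of each gene (points, red where called) by list, with the list median (bar), in humanized (left) and Grn+/- mice (right) against wild type. MGE and CGE are the medial and caudal ganglionic eminence. Oligodendrocyte markers all lie below 0 in both panels, and striatal markers lie mostly above 0 in humanized mice.

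Markers of other cells were read in the same tables. Oligodendrocyte markers were negative in 6 of 6 genes in both groups, with medians of -0.22 in humanized and -0.14 in Grn+/- mice and 0 called, and 0 also at an unadjusted p under 0.05 by the same Wald test. Mobp was the most negative of them, at -0.25 ± 0.136 in humanized mice and -0.21 ± 0.136 in Grn+/- mice in the authors' deposited tables. Of 6 precursor markers, 0 were called in humanized mice, with 3 at an unadjusted p under 0.05, and 2 in Grn+/- mice. Gpr17 had -0.28 ± 0.093 in humanized mice and -0.49 ± 0.094 in Grn+/- mice in the authors' deposited tables. For Vcan the authors' deposited tables give -0.27 ± 0.108 in humanized mice and -0.45 ± 0.108 in Grn+/- mice. The third marker under that p in humanized mice, Cspg4, had the other sign, at 0.19 ± 0.073 (adjusted p = 0.096), against -0.08 ± 0.074 in Grn+/- mice, in the authors' deposited tables. Precursor markers were negative in 4 of 6 genes in humanized mice and in 6 of 6 in Grn+/- mice, with medians of -0.10 in humanized mice and -0.13 in Grn+/- mice. Between the mutant groups 5 of 6 were positive with a median of 0.19, 0 were called and 3 had an unadjusted p under 0.05. The part of these cells in the values of Erbb4, Erbb3, Egfr, Sox6 and Tnr was not tested. Gad1, Gad2 and Slc32a1 are expressed in striatal projection neurons too. Striatal markers were positive in 8 of 9 genes in humanized mice and in 2 of 9 in Grn+/- mice, with medians of 0.15 in humanized mice and -0.06 in Grn+/- mice and 0 called, and 0 also at an unadjusted p under 0.05 by the same Wald test. Between the mutant groups 0 of 9 were called, 3 had an unadjusted p under 0.05, and Gpr6 had the largest fold change, 0.32 ± 0.113 (adjusted p = 0.24) in the authors' deposited table, and the part of striatal tissue in the GABA genes was not tested.
Markers of excitatory neurons had 1 of 9 called in each group, Camk2a at -0.20 ± 0.055 in humanized mice and Emx1 at 0.36 ± 0.115 in Grn+/- mice in the authors' deposited tables. Pan-neuronal markers had 0 of 7 called in humanized mice, with 2 at an unadjusted p under 0.05, and 2 of 7 in Grn+/- mice, with 4 at an unadjusted p under 0.05. In Grn+/- mice Snap25 was higher at 0.29 ± 0.097 and Map2 lower at -0.25 ± 0.067 in the authors' deposited table. Map2 was the only negative pan-neuronal marker there, with 6 of 7 positive and a median of 0.17, while in humanized mice 4 of 7 were positive with a median of 0.0088. The part of this in the Gad1 and Slc32a1 values of the same Grn+/- mice was not tested. Endothelial markers had 3 of 6 lower in humanized mice, Flt1 (-0.36 ± 0.090), Kdr (-0.40 ± 0.117) and Slco1c1 (-0.36 ± 0.087), and 0 called with 2 at an unadjusted p under 0.05 in Grn+/- mice, in the authors' deposited tables. Astrocyte markers had 0 of 6 called in humanized mice, with 2 at an unadjusted p under 0.05, and 2 lower in Grn+/- mice, Slc1a2 at -0.22 ± 0.073 and Gja1 at -0.26 ± 0.085, in the authors' deposited tables. Microglia markers had 0 of 6 called in each group and 0 at an unadjusted p under 0.05, Tmem119 being at -0.12 ± 0.095 in humanized mice and -0.18 ± 0.095 in Grn+/- mice in the authors' deposited tables. Neuroblast and olfactory bulb markers had 0 of 4 called in each group and 0 at an unadjusted p under 0.05, Cdhr1 being at 0.18 ± 0.095 in humanized mice and 0.11 ± 0.095 in Grn+/- mice in the authors' deposited tables. The cortical markers Slc17a7, Tbr1 and Emx1 were all present, as the tissue label says.

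Fold changes were also read by gene span, the distance between the ends of a gene. Erbb4 spans 1076 kb, more than 99.7% of genes, and Nxph1 301 kb, more than 96.2%. Genes of 100 to 500 kb had a median log2 fold change of -0.02 in humanized mice and -0.04 in Grn+/- mice, and 5.16% of them in humanized mice and 9.17% in Grn+/- mice were called lower, computed from the authors' deposited tables. For genes of 500 kb and over the median was 0.0062 with 2.37% called lower in humanized mice, and -0.0059 with 8.42% called lower in Grn+/- mice. Among the 202 such genes in Grn+/- mice, 6 had a lower fold change than Erbb4. With the median of genes of similar span subtracted, Erbb4 was at -0.34 in humanized mice (adjusted p = 0.11) and -0.42 in Grn+/- mice (adjusted p = 0.028), and Nxph1 at 0.31 in humanized mice (adjusted p = 0.0075) and 0.33 in Grn+/- mice (adjusted p = 0.0026). The same step put Gad1 past the threshold in Grn+/- mice, at 0.23 with adjusted p = 0.048. Reads assigned to no gene were lower in both groups, at -0.18 ± 0.052 (adjusted p = 0.024) in humanized mice and -0.22 ± 0.052 (adjusted p = 0.0019) in Grn+/- mice in the authors' deposited tables.

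**Figure D5:**
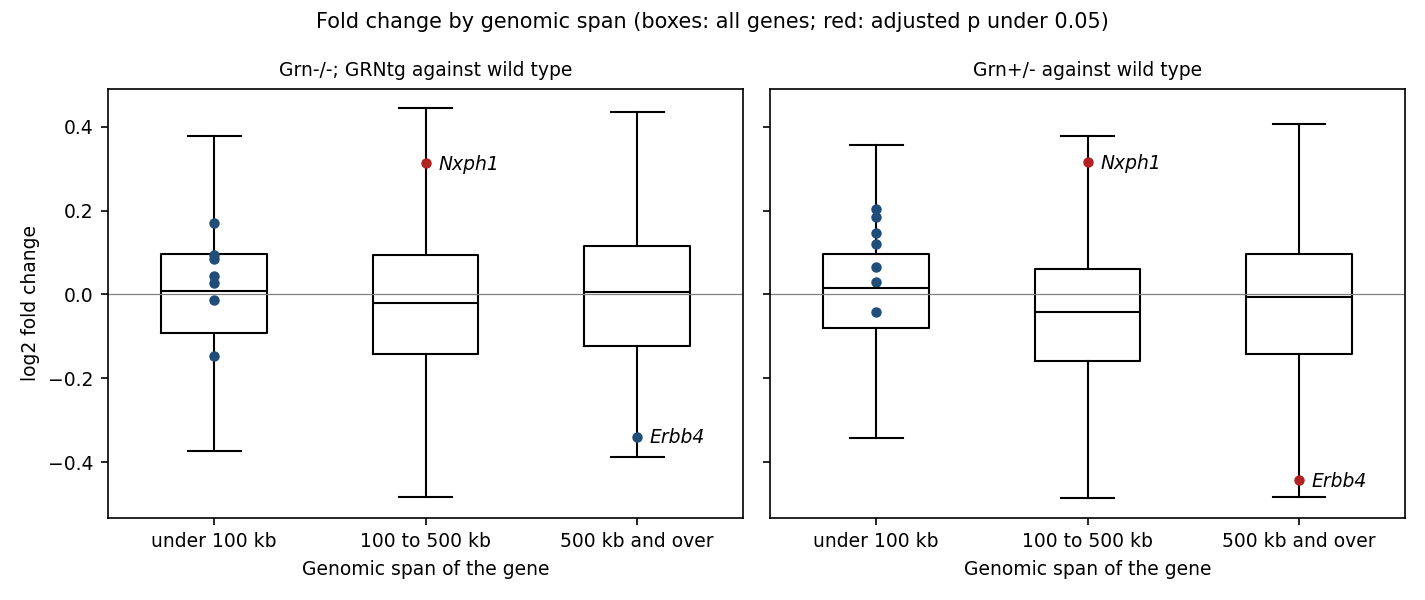
Log2 fold change by genomic span of the gene in humanized (left) and Grn+/- mice (right) against wild type: boxes show quartiles and median of all genes, whiskers reach to the farthest gene within 1.5 box lengths, and points are the 9 genes (red where called). Nxph1 lies high among genes of 100 to 500 kb and Erbb4 low among those of 500 kb and over.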

How the data were processed

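Cortical RNA libraries of 13 mice were made with a directional kit from total RNA, per the labels' protocols. Build mm10, R 4.1.2 and DESeq2 1.34.0 are named, with no role, per the submitters' processing notes. Aligner, counter and annotation: not given in the sources used here. The 3 tables used were deposited by the authors with a signal column, the normalized count of each gene averaged over the libraries. They also hold the authors' log2 fold change with its SE, and the Wald statistic, a score the authors computed as their ratio. The p-value and its adjusted p-value were deposited by the authors, and a Benjamini-Hochberg adjustment of all rows gave the same adjusted values. The comparisons close on each other exactly (humanized minus Grn+/- equals the gap of their values against wild type), as in a single fit.

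With no values per mouse, no count test could be run, depth per mouse is unknown, and the authors' p-values rest on the spread their model found among these animals. Mean normalized counts of genes summed to 18113972. The 2 rows that name no gene were left out: unassigned reads (17.0% of the sum with them) and ambiguous reads (0.606%). Intervals are 1.96 SE either side, raised to powers of 2 for percent of wild type. Exon lengths and spans are from GENCODE M21 (GRCm38, the assembly mm10 names), found for 96.5% of genes in all tables, and the entry with most exonic bases was used where a symbol had several. Lists held 140 genes, of which 139 matched, and Eomes was not analysed here. Named genes are the members, Grn, every list gene called in any table, the gene with the largest fold change of lists with none called, genes set beside a member's result, and the 3 nearest to each called member. Gphn, the neuregulins, Erbb2, Acan, Calb2, Dlx6, Dlx1as, Slc17a7, Tbr1, Cspg4 and Nrxn2 were also named after their values were seen, and some list genes are not reported here. Alternatives were other thresholds, adjustment sets, a count minimum of 100, rescaled statistics, centring and removal of a span trend in 20 bins, the last chosen after seeing the data. Code was tested on simulated data. Members and lists were chosen with earlier results of these data known. Software: scipy 1.17.1, pandas 2.3.3 and numpy 2.4.6 under Python 3.11.15, with matplotlib 3.10.9 for plots.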

Additional observations from a re-analysis of the deposited data

Results flagged for a closer look

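The fold changes of the mutant groups differed by the authors' test of that difference for 2 named genes. Etv1, a transcription factor of the interneuron lists, was 0.45 higher (log2) in humanized than in Grn+/- mice in the authors' deposited table. Grn, the targeted gene, was at -1.36 there in the authors' deposited table. Of the 9 GABA synthesis and interneuron genes, 0 passed that test, and 0 had an unadjusted p under 0.05 in it.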

How the results depend on the processing

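No paired analysis was possible because the tables hold no value per mouse, and leaving out single mice was not run for the same reason. Of the 213 values of single members under 8 other settings, 204 kept their sign and their side of the threshold. Only centring and the span step change a fold change, so under the other settings no sign could turn, and the count is no measure of robustness. Division of the statistics by their robust spread (1.56 in humanized and 1.49 in Grn+/- mice against wild type) left 0 members and 0 list genes called in each comparison, including 0 list genes between the mutant groups, since it raises every p. At an adjusted p under 0.01, members called in Grn+/- mice were 1, and list genes called were 0 in humanized mice, 1 in Grn+/- mice and 0 between the mutant groups. At an adjusted p under 0.1, members called in humanized mice were 2 and list genes called between the mutant groups were 3. Among genes with a mean normalized count of at least 100, 1 member was called in Grn+/- mice, since Erbb4 is below that count. With the span trend removed, Dlx1 stood at -0.0016 and Dlx6os1 at 0.0096 in humanized mice, which turns their sign, and both are near 0 in either case. The same step left 7 list genes called in humanized mice, without Zeb2 and with Nrxn2, and 3 in Grn+/- mice, without Lhfpl4. Centring on the median gene left 6 in humanized mice, without Lhfpl4. Few reads limit Erbb4, and both Erbb4 and Pvalb have SEs near the largest SE of any gene. Whether that SE is a limit of the authors' model was not tested.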
